A study of Mus musculus with 6 samples.

Results

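Proteasome genes were examined in the soleus, a slow hindlimb muscle, of mice that lack Gna13 in muscle. The members were chosen by name: every gene whose symbol begins with Psma, Psmb, Psmc, Psmd, Psme, Psmf or Psmg and ends in a number, leaving out the immunoproteasome genes Psmb8, Psmb9 and Psmb10. The rule found 45 of the 23152 genes in the table, read by 535 of its 269751 probe sets. By role they were 7 genes of the alpha ring, 7 of the beta ring, 2 tissue-restricted ring genes, 6 ATPases, 11 non-ATPase subunits, 3 chaperones of the regulatory particle, 4 activators, 1 inhibitor and 4 chaperones of the core. The name rule thus takes in assembly chaperones and an inhibitor beside subunits and activators.

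The knockout group (MKO) was 3 male mice with loxP sites on both Gna13 alleles (Gna13 flox/flox) and Cre driven by the promoter of muscle creatine kinase (Ckmm-Cre). The control group (WT) was 3 male mice with the same floxed Gna13 alleles and no Cre. All were 18 weeks old and had fasted for 14 h, and each mouse gave 1 array of whole soleus RNA. Because no WT mouse carried Cre, an effect of Cre itself and of the lost gene cannot be told apart. Endothelium, fibroblasts and other cells of the muscle do not use this promoter and keep Gna13. In whole muscle RNA, fewer cells of a type and less RNA per cell cannot be told apart either.

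The proteasome degrades proteins tagged with ubiquitin. Its core particle is a barrel of alpha and beta rings, and 3 of the beta subunits, encoded by Psmb5, Psmb6 and Psmb7, cut the substrate. The regulatory particle caps the barrel: its ATPase ring unfolds the substrate and feeds it in, while its other subunits bind ubiquitin chains and remove them. In muscle the pathway breaks down contractile proteins during fasting and disuse. Its subunit genes are known to be raised together by the transcription factor encoded by Nfe2l1 when proteasome activity falls short.

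Promoter sequence was available in RefSeq (build GRCm38.p6) for 37 of the 45 genes, in 40 windows, of which the 250 bases before the transcription start were searched on both strands. The core of the antioxidant response element, TGACNNNGC, to which the Nfe2l1 product binds, stood in 5 of the 40 windows (12.5%) and in 10.2% of all 32851 windows. The NF-Y letters CCAAT stood in 13 of 40 (32.5%) and in 33.9% of all. Both shares in proteasome promoters lay close to those of all windows. Another run of letters, TCTCGCGAGA, was chosen as the longest palindrome that stood at least 2 times in the Psmd5 window. Its 2 copies there, beginning at −72 and −26 from the start, were thus fixed by the choice. It stood in 1 of the 40 windows (2.5%), that of Psmd5, and in 0.39% of all windows. Windows with 2 or more copies were 0.027% of all. Because of the choice, these shares do not measure how unusual Psmd5 is. The windows of 3 genes are shown: Psmd5, which had a lower mean in MKO at all 11 of its probe sets, and both catalytic genes with the response element core. Capitals mark TCTCGCGAGA in Psmd5 and TGACNNNGC in the others, and each sequence runs 5′ to 3′ on the strand of the gene. A match describes letters and is no evidence of binding.
Psmd5 (chr2:34870963-34871212, minus strand): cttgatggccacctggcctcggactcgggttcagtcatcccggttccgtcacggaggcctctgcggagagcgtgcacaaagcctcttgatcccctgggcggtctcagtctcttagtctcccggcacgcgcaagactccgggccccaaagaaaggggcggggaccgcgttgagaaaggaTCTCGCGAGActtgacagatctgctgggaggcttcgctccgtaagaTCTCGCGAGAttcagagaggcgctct
Psmb5 (chr14:54617996-54618245, minus strand): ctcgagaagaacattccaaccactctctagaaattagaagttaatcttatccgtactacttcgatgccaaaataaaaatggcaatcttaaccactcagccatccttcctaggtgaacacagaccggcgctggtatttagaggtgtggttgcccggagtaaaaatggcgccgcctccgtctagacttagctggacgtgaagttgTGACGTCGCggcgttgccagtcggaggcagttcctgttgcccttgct
Psmb6 (chr11:70525107-70525356, plus strand): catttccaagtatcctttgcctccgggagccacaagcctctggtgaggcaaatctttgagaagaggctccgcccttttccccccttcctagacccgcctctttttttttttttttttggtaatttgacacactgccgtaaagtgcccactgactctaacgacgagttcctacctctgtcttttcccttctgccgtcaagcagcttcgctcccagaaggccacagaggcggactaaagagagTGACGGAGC

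Values are log2 values made by robust multi-array averaging (RMA), and a gene's value on an array is the mean of its probe sets. The median probe set stood between 4.87 and 4.93 on the MKO arrays and between 4.92 and 4.95 on the WT arrays. Of 7 Gna13 probe sets, 17257825 read 3.43, 4.25 and 4.33 in MKO, against 5.48, 6.23 and 6.16 in WT, a 3.87-fold lower mean in MKO. Only 1 other probe set of that gene was lower in MKO, and 5 were higher. The exons behind these probe sets were not analysed here. The 7 slow fibre and 4 general muscle markers all lay at or above percentile 94.3 of all genes. The 5 endothelial markers all had a lower mean in MKO (mean level 7.02 to 7.29 in MKO, against 7.21 to 7.59 in WT), as did 4 of 5 macrophage markers (4.85 to 5.21 in MKO, against 5.07 to 5.49 in WT). All 5 fibroblast markers did too, with a median difference of −0.31. Of all genes 53.4% had a lower mean in MKO, and of genes above the median level 61.6%. Cldn5 (−0.73) and Cd68 (−0.82) stood out, and the other endothelial and macrophage markers differed by between −0.24 and 0.07. MKO replicate 1 stood apart on the first principal component over all genes, at 33.6, against −19.7 and −2.99 for the other MKO arrays and −17.9 to 14.4 for WT. The same array had the lowest mean of the 6 fast fibre markers (8.53, against 9.50 and 10.1 on the other MKO arrays and 9.73 to 10.1 in WT) and of the 5 fibroblast markers (7.42, against 7.85 and 7.996 on the other MKO arrays and 7.83 to 8.18 in WT). Its low fast fibre mean rested mostly on Myh4 (5.11, WT mean 10.70) and Pvalb (5.64, WT mean 7.73). On that array Myh1 (9.94, WT mean 10.25) and Mylpf (8.62, WT mean 8.96) were somewhat low. Tnni2 (10.20, WT mean 10.17) and Tnnt3 (11.66, WT mean 11.73) stood near WT.

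No proteasome gene passed the test. The test was limma over all genes, with Benjamini-Hochberg adjustment. By it 0 of the 45 had an adjusted p under 0.05, as did 0 of all 23152 genes (0.0%), and the adjusted p was 0.9997 for every member. Under 15 alternative settings 0 members passed either, and at most 1 gene of the table did (0.00432% with array weights). At an unadjusted p under 0.05, 2 members were lower in MKO (4.44%, where 2.41% of all genes were) and 0 were higher (1.92% of all genes were). The differences were small and mostly negative. In MKO relative to WT, 33 members had a lower mean and 12 a higher one, with a median difference of −0.08 and a range from −0.43 to 0.27 on the log2 scale. Over all genes 53.4% had a lower mean in MKO and the median was −0.01. Among the brighter part of the table, genes above the median level, 61.6% had a lower mean in MKO, and 30 of the 41 members that fall there did (73.2%).

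The share of members with a lower mean depended on the scaling. It was 73.3% in the deposited values, 66.7% after median centring (47.0% of all genes) and 60.0% after quantile normalization of the gene values (49.7% of all genes). The median difference of the members was −0.0542 after centring and −0.0409 after quantile normalization. Without MKO replicate 1 it was 64.4%, or 29 of 45, beside 51.6% of all genes, and the median difference of the members was −0.05. Without MKO replicate 3 it was 80.0%, or 36 of 45, with a median of −0.12, beside 53.6% of all genes, and 7 members then had an unadjusted p under 0.05 (6.74% of all genes did). The 3 MKO arrays lay below the 3 WT arrays in 6 members (13.3%, where 4.99% of all genes did so), and above them in 1 member (2.22%, where 4.26% did). The 6 were Psmb2, Psmb5, Psmb6, Psmd4, Psmd5 and Psmd12, and the 1 was Psmb4.

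**Figure D1:**
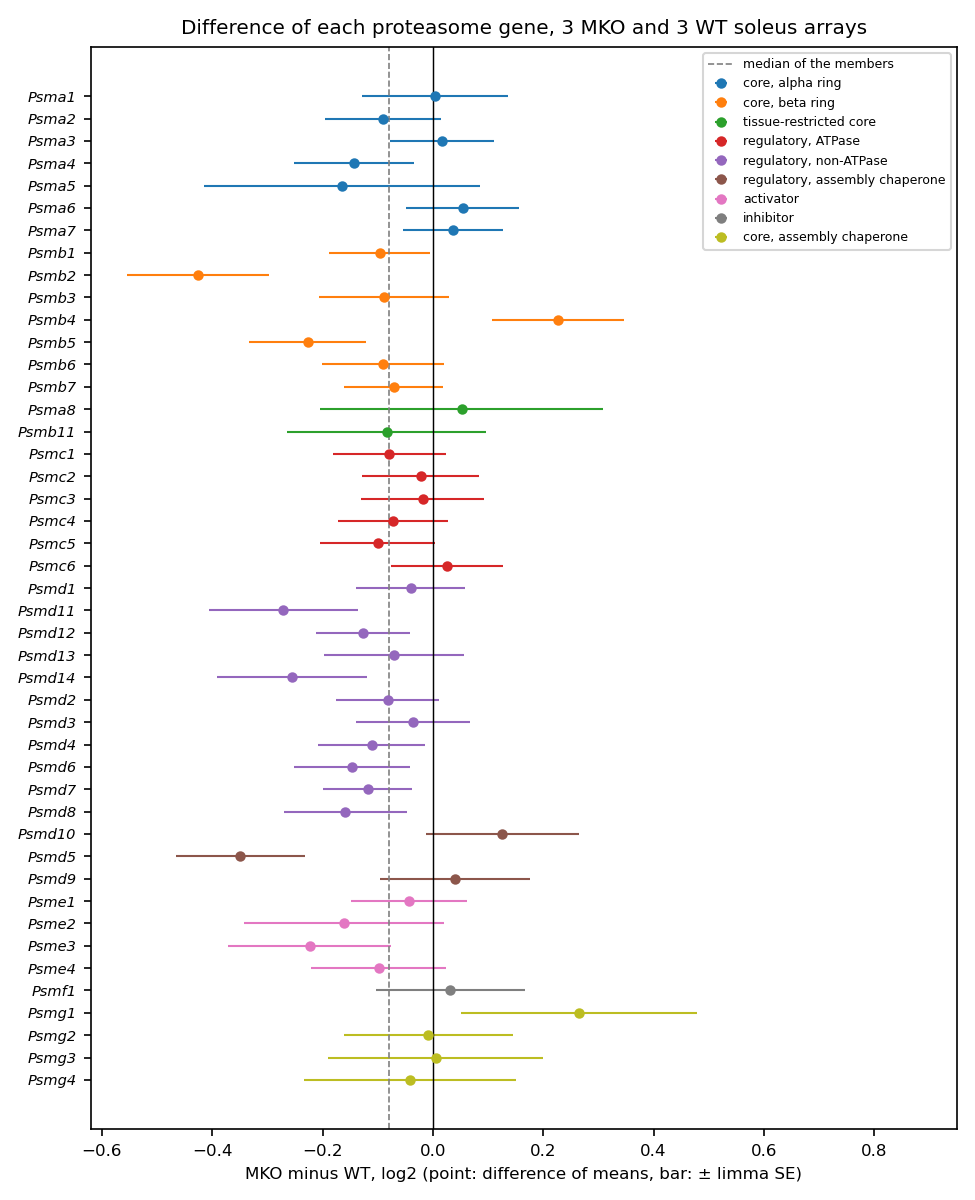
Difference between MKO and WT soleus for each of the 45 proteasome genes on the log2 scale, coloured by role. Points are differences of group means (n = 3 each), bars are ± 1 standard error from limma, the solid line marks no difference and the dashed line the members' median of −0.08. Psmb2 lies farthest left at −0.43 and Psmg1 farthest right at 0.27.

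The beta ring, which holds the catalytic sites, had the widest spread of differences among the larger groups. Of its 7 genes, 6 had a lower mean in MKO and 1 a higher one, with a median of −0.09, or −0.0505 after quantile normalization. Psmb5 encodes the subunit with chymotrypsin-like activity, the target of proteasome inhibitor drugs. It read 7.61, 7.69 and 7.87 in MKO, against 7.90, 8.09 and 7.87 in WT, a difference of −0.23 (SE 0.11). The groups did not overlap, but the highest MKO and the lowest WT array both round to 7.87. A median over probe sets gave −0.11. Its 7 probe sets were uneven: 17306419 differed by −0.90 and 17306425 by −0.51, while 17306423, with a mean of 9.70 in MKO and 9.67 in WT, differed by 0.03.

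Psmb6, with caspase-like activity, read 6.47, 6.38 and 6.48 in MKO, against 6.52, 6.52 and 6.55 in WT, a difference of −0.09 (SE 0.11). Its arrays lay apart by a narrow margin, and the WT arrays were within an SD of 0.016. Psmb7, with trypsin-like activity, read 8.37, 8.41 and 8.57 in MKO, against 8.48, 8.51 and 8.57 in WT, a difference of −0.07 (SE 0.09) with groups that overlapped. The structural subunits Psmb1 and Psmb3 differed by −0.10 and −0.09, with overlap in both.

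Psmb2 and Psmb4 encode structural beta subunits and had the largest difference of this ring in each direction. Psmb2 read 5.93, 6.20 and 6.21 in MKO, against 6.57, 6.64 and 6.41 in WT, a difference of −0.43 (SE 0.13), or a 1.34-fold lower level. The groups did not overlap. Of its 9 probe sets, 8 had a lower mean in MKO, and 2 of these had by far the largest differences. Probe set 17418634 read 1.21, 0.78 and 1.05 in MKO, against 3.36, 3.81 and 3.19 in WT, and 17418639 read 2.46, 4.45 and 4.61, against 5.36, 5.29 and 5.13. Both lie below the median row of the table (4.84), and without them the mean difference of the other 7 was 0.00. That mean holds 1 probe set above the median row at 0.70, the only one of the 9 with a higher mean in MKO. The 4 probe sets of Psmb2 at the highest level differed by between −0.11 and −0.04.

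Psmb4 read 6.37, 6.18 and 6.33 in MKO, against 6.13, 6.07 and 6.01 in WT, a difference of 0.23 (SE 0.12) with no overlap. Again 1 probe set stood out: 17407633 read 5.04, 6.03 and 5.94 in MKO, against 4.80, 4.90 and 4.05 in WT, a difference of 1.09 (SE 0.41). Without it the gene's mean difference was 0.12, and 17407638, its brightest probe set, differed by −0.02. For both genes the sign of the difference depended on how probe sets were summarised. With the median of the probe set levels on each array, Psmb2 differed by 0.38 and Psmb4 by −0.12. The median of the probe set differences kept the sign of the mean, at −0.11 for Psmb2 and 0.04 for Psmb4.

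**Figure D2:**
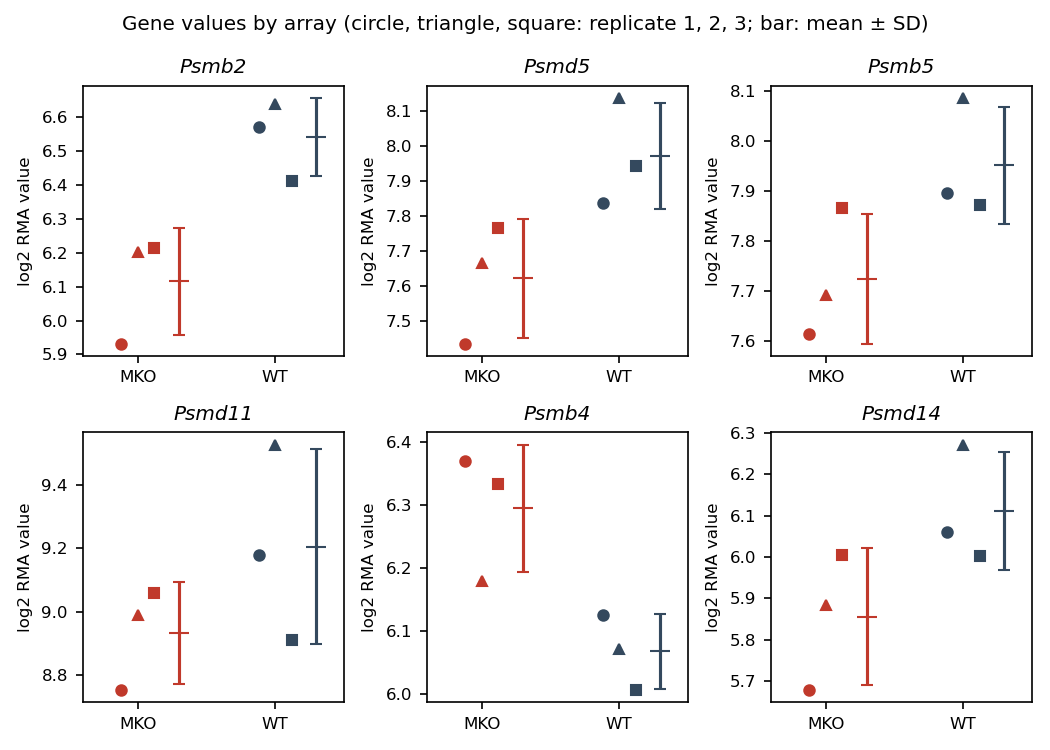
Log2 RMA values of the 6 members with the smallest p on each array, MKO left and WT right, with replicates 1, 2 and 3 as circle, triangle and square and the mean ± SD (n = 3) beside them. Panels have their own vertical range and do not start at 0; Psmb2, Psmd5, Psmb5 and Psmb4 have no overlap between groups, and Psmd11 and Psmd14 overlap.

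The alpha ring, which gates the barrel, was close to even. Of its 7 genes, 3 had a lower mean in MKO and 4 a higher one, with a median difference of 0.00 and a range from −0.17 to 0.05. Psma4 read 8.31, 8.47 and 8.69 in MKO, against 8.69, 8.71 and 8.49 in WT, a difference of −0.14 (SE 0.11) with overlap. All 10 of its probe sets had a lower mean in MKO, with differences from −0.38 to −0.04. Psma5 rested on 3 probe sets at a low level and varied from 3.24 to 4.25 within WT alone around a difference of −0.17 (SE 0.25). Psma1, Psma3, Psma6 and Psma7 differed by between 0.00 and 0.05, and Psma2 by −0.09. These signs depended on the summary of the probe sets. With the median of their levels on each array, Psma1 was at −0.33, Psma3 at −0.0347, Psma7 at −0.0744, Psma2 at 0.165 and Psma5 at 0.0163. The median of the probe set differences kept the sign of the mean for Psma1 (0.03), Psma2 (−0.10) and Psma5 (−0.14). It was below 0 for Psma3 (−0.0033) and Psma7 (−0.05).

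The genes restricted to other tissues stayed near the floor of the arrays. Psma8, a testis form of the alpha ring, read 3.68, 3.83 and 2.90 in MKO, against 3.41, 3.04 and 3.80 in WT. Psmb11, a beta subunit of the thymic cortex, read 3.08, 2.90 and 3.21 in MKO, against 3.18, 2.93 and 3.33 in WT. Their means lay at percentiles 26.3 and 18.7 of all genes and the groups overlapped in both. None of their 11 probe sets lay above the median row. Detection calls are not part of the values used here, so whether these genes were expressed was not tested.

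The 6 ATPase genes of the regulatory particle had a narrow range of differences. Of Psmc1 to Psmc6, 5 had a lower mean in MKO and 1 a higher one, with a median of −0.05 and a range from −0.10 for Psmc5 to 0.03 for Psmc6. After quantile normalization 3 of the 6 had a lower mean, with a median of −0.0033. None had an unadjusted p under 0.05 (4.33% of all genes did). The arrays overlapped in all 6, where MKO lay wholly below WT in 4.99% of all genes and wholly above in 4.26%. Psmc5 had 7.31, 7.49 and 7.59 in MKO, against 7.56, 7.55 and 7.58 in WT, with MKO replicate 1 lowest and MKO replicate 3 above all WT arrays.

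Among the non-ATPase subunits of the regulatory particle, all 11 had a lower mean in MKO, with a median of −0.12 and a range from −0.27 to −0.04. After quantile normalization 9 of the 11 did, Psmd1 and Psmd3 being the exceptions, with a median of −0.0734, and without WT replicate 2 the median was −0.0768. None of the 11 passed an unadjusted p under 0.05 (4.33% of all genes did). In 2 of them, Psmd4 and Psmd12, all MKO arrays lay below all WT arrays (18.2%, where 4.99% of all genes did so). Psmd11, a lid subunit that stabilises the assembled particle, read 8.75, 8.99 and 9.06 in MKO, against 9.18, 9.53 and 8.91 in WT, a difference of −0.27 (SE 0.14). WT replicate 2 was the high array and WT replicate 3 fell among the MKO arrays. Without WT replicate 2 the difference was −0.11, and without WT replicate 3 it was −0.42. Psmd14, the deubiquitinase of the lid, read 5.68, 5.88 and 6.005 in MKO, against 6.06, 6.27 and 6.003 in WT, a difference of −0.26 (SE 0.14), with MKO replicate 1 lowest and MKO replicate 3 level with WT replicate 3.

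Psmd12, a lid subunit, was the tightest of the group. It read 8.33, 8.29 and 8.34 in MKO, against 8.46, 8.41 and 8.47 in WT, a difference of −0.13 (SE 0.08) between groups with SDs of 0.028 and 0.034. Its probe set 17257679, below the median row, differed by −1.19 (SE 0.73), and without it the gene's mean difference was −0.06. Psmd4, a receptor for ubiquitin chains that was picked out after its values were seen, read 7.44, 7.49 and 7.50 in MKO, against 7.56, 7.66 and 7.54 in WT, a difference of −0.11 (SE 0.10).

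The lid subunit Psmd7 read 9.29, 9.32 and 9.41 in MKO, against 9.47, 9.54 and 9.36 in WT, a difference of −0.12 (SE 0.08). Psmd8, also of the lid, read 9.15, 9.23 and 9.26 in MKO, against 9.33, 9.65 and 9.14 in WT, a difference of −0.16 (SE 0.11). WT replicate 3 lay among the MKO arrays in Psmd7 and below them in Psmd8, and without WT replicate 2 the difference of Psmd8 was −0.02. Psmd6 read 7.54, 7.63 and 7.84 in MKO, against 7.85, 7.81 and 7.78 in WT, a difference of −0.15 (SE 0.11), of which −0.04 was left without its probe set 17303580 (−1.13, SE 0.44). Psmd13 read 6.31, 6.29 and 6.63 in MKO, against 6.49, 6.53 and 6.43 in WT, a difference of −0.07 (SE 0.13). Its dim probe set 17484653 ran the other way, at 1.06 (SE 0.42). The scaffold subunits Psmd1 and Psmd2 and the lid subunit Psmd3 differed by −0.04, −0.08 and −0.04, with overlap.

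The chaperones that assemble the regulatory particle did not move as one. Psmd5, which holds ATPase subunits during assembly, read 7.44, 7.67 and 7.77 in MKO, against 7.84, 8.14 and 7.94 in WT, a difference of −0.35 (SE 0.12), or a 1.27-fold lower level. All MKO arrays lay below all WT arrays. Unlike Psmb2, the difference was spread over the gene: all 11 of its probe sets lay above the median row, all 11 had a lower mean in MKO, and they differed by between −0.74 and −0.13. Of the 27 members with at least 10 probe sets, 2 (Psmd5 and Psma4) had a lower mean in MKO at every probe set, as did 0.439% of the 10024 such genes in the table. These 2 have 11 and 10 probe sets, all above the median row. The genes of the table were not matched to them for number or level of probe sets. Probe sets of a gene share the same arrays and are not independent of each other. Over 15 alternative settings the difference of Psmd5 lay between −0.42 and −0.26 and never passed, with adjusted p-values from limma between 0.542 and 0.9999. Several of these settings could not move that difference. They are the moderation, the replicate block and the filters on dim genes or probe sets. The other chaperones of this kind, Psmd9 (0.04) and Psmd10 (0.13), had higher means in MKO and overlapped between groups. For Psmd9 the sign was not stable: a median over probe sets gave −0.24, and those above the median row averaged −0.0563.

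**Figure D3:**
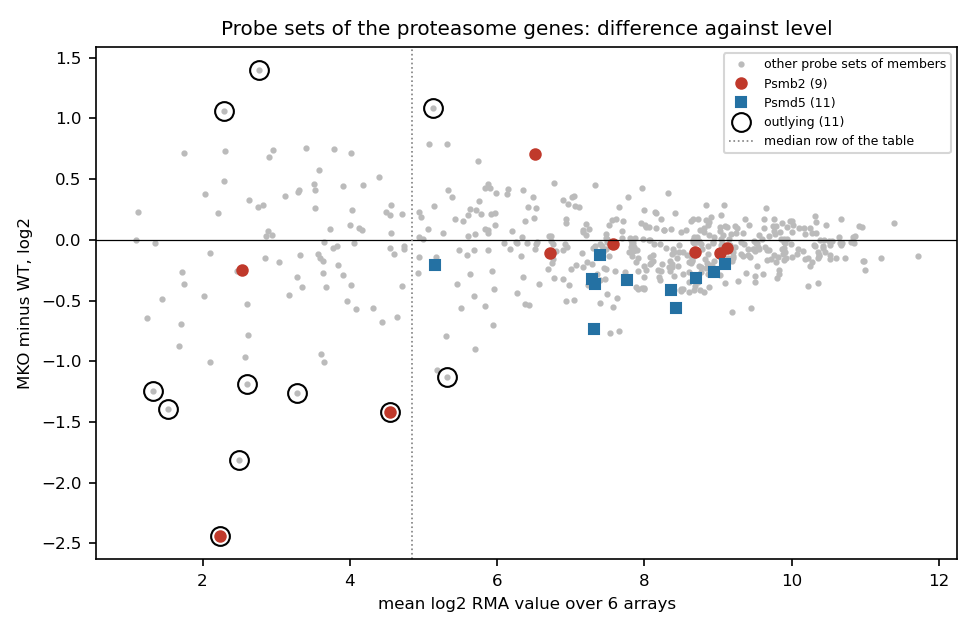
Difference between MKO and WT (log2) against the mean level over the 6 arrays for the 535 probe sets of the proteasome genes. The 11 circled probe sets depart by over 1 log2 unit from their gene's median difference, and 9 of them lie left of the median row; Psmb2 (red) has 2 of them, while the 11 probe sets of Psmd5 (blue) all lie below 0 and right of that line.

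Over all members, 0 of 535 probe sets passed limma adjusted over all rows, as did 0 of 269751 rows (0.0%), and 23 were lower and 5 higher in MKO at an unadjusted p under 0.05. These 28 are 5.23% of the members' probe sets, beside 5.0% of all rows. A lower mean in MKO was found in 334 of the 535, where 51.3% of all rows had one. Of 443 probe sets above the median row, 63.4% had a lower mean in MKO (53.1% of such rows in the table), and of 92 below it, 57.6% did (49.5% of such rows). The median difference was −0.06 in both sets, and the SD of the differences was 0.25 in the bright and 0.63 in the dim set. A probe set was called outlying where its difference departed by over 1 log2 unit from the median difference of its gene. By that rule 11 probe sets in 10 genes were outlying (2.06%, where 5.61% of rows with 1 gene symbol were), 8 of them lower and 3 higher in MKO, and 9 lay below the median row. The 2 shares are not matched for level, as 443 of the 535 lay above the median row.

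The activators open the barrel without the regulatory particle. All 4 genes had a lower mean in MKO, with a median of −0.13, and the arrays overlapped in each. Without MKO replicate 1 the mean was lower in 2 of the 4 and the median was −0.0599, without WT replicate 1 it was −0.0786, and with the median of probe sets it was 0.0009. Psme3, the nuclear activator, read 6.15, 6.45 and 6.37 in MKO, against 6.75, 6.64 and 6.25 in WT, a difference of −0.22 (SE 0.15). Its dim probe set 17256690 read 1.21, 1.19 and 2.37 in MKO, against 4.13, 3.29 and 2.80 in WT, and over its 10 probe sets above the median row the mean difference was −0.01. Psme4, a large activator read by 44 probe sets, had 8.41, 8.73 and 8.92 in MKO, against 8.91, 8.66 and 8.78 in WT, a difference of −0.10 (SE 0.12). Only MKO replicate 1 lay below the WT arrays, and without it the difference was 0.04. Its probe set 17248159 (−1.39, SE 0.74) rested on a single WT array at 4.17, with the other WT arrays at 0.78 and 1.73 and MKO between 0.65 and 0.93. Psme1 and Psme2, whose products form the interferon-inducible activator, differed by −0.04 and −0.16. The inhibitor gene Psmf1 differed by 0.03 (SE 0.14), with overlap.

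The chaperones of the core went both ways. Psmg1, which pairs with Psmg2 to build the alpha ring, had the highest difference of all members in the 6 arrays. It read 4.51, 5.26 and 5.31 in MKO, against 4.94, 4.85 and 4.48 in WT, a difference of 0.27 (SE 0.21), with MKO replicate 1 inside the WT range. The size rested on single arrays: it was 0.52 without MKO replicate 1, 0.15 without MKO replicate 2, 0.12 without MKO replicate 3 and 0.13 without WT replicate 3. Without MKO replicate 3, Psma8 (0.33) and Psmb4 (0.21) lay above it. Its probe set 17332387 read 3.29, 3.65 and 3.45 in MKO, against 1.91, 2.37 and 1.91 in WT, and without it the mean difference was 0.10. Psmg2 read 5.15, 5.63 and 5.50 in MKO, against 5.52, 5.45 and 5.34 in WT, a difference of −0.01 (SE 0.15). Its probe set 17355229, among the dimmest, differed by −1.25 (SE 0.33). Psmg3 differed by 0.01 (SE 0.19), a mean over unlike probe sets. The 2 of its 4 above the median row differed by 0.36 and 0.41, with a mean of 0.38, and the 2 below it by −0.29 and −0.46. Psmg4, with 0 of 5 probe sets above the median row, differed by −0.04.

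The arrays did not contribute evenly. Relative to the WT mean of each gene, the 45 members averaged −0.15, −0.06 and 0.00 on MKO replicates 1, 2 and 3, against 0.00, 0.04 and −0.04 on WT replicates 1, 2 and 3. The same means over all genes lay between −0.01 and 0.00. MKO replicate 1 was the lowest of the 6 arrays in 25 of 45 members (55.6%, where 24.0% of all genes had their lowest value there). MKO replicate 3, by contrast, lay at the WT mean, and WT replicate 3 lay below it. MKO replicate 1 was also the array with the lowest fast fibre and fibroblast marker means, given above, and the part of these in the proteasome values was not tested. The non-ATPase subunits kept the order of the whole set, at −0.21, −0.15 and −0.03 on the MKO arrays, against 0.00, 0.07 and −0.07 in WT. The alpha ring stood at −0.13, −0.09 and 0.09 on the MKO arrays, against −0.07, 0.11 and −0.04 in WT. The beta ring lay below all WT means on all 3 MKO arrays, at −0.16, −0.11 and −0.06, against 0.01, 0.02 and −0.03 in WT. These means include Psmb2 with its 2 outlying probe sets. On MKO replicate 3 Psmb2 lay farthest below its WT mean of the ring (6.21, against 6.54). Psmb4 (6.33, against 6.07) and Psmb7 (8.57, against 8.52) lay above their WT means there, and Psmb1, Psmb3, Psmb5 and Psmb6 lay below theirs. Without Psmb2 the ring on MKO replicate 3 was about level with WT replicate 3.

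**Figure D4:**
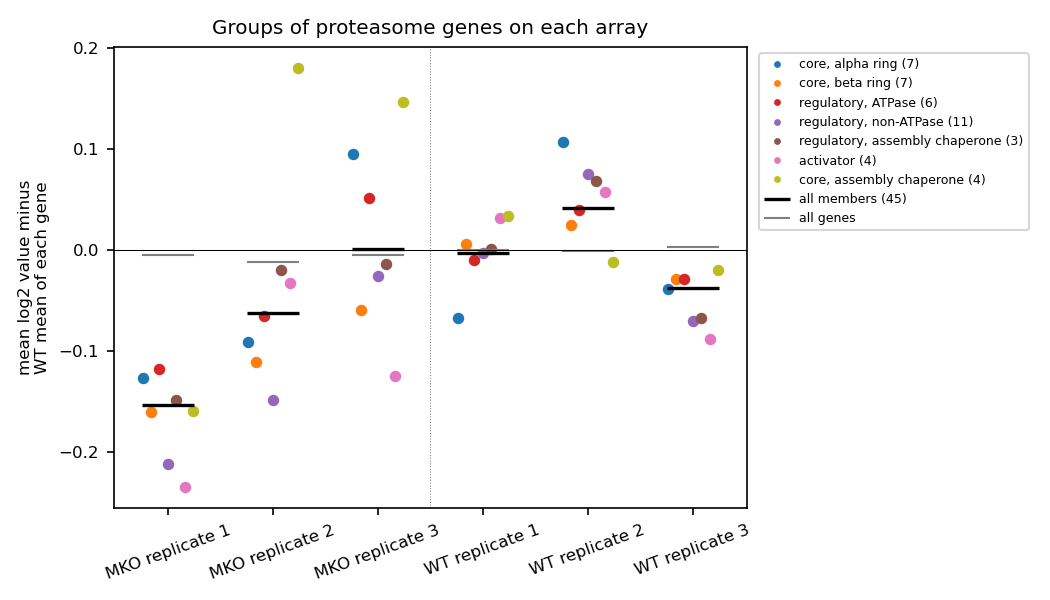
Mean log2 value of each group of proteasome genes on each array relative to the WT mean of each gene (number of genes in brackets), with MKO arrays left and WT arrays right. Black bars are the mean of all 45 members (−0.15 on MKO replicate 1 and 0.00 on MKO replicate 3) and grey bars the mean of all genes; the tissue-restricted genes and Psmf1 are in the black bars and have no point of their own.

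Other genes of the pathway were taken from 6 lists, and none of their 35 measured genes had an unadjusted p under 0.05 (4.33% of all genes did). The immunoproteasome genes Psmb8, Psmb9 and Psmb10, which replace the catalytic subunits after interferon, all had a lower mean in MKO, with a median of −0.12. Psmb9 read 5.01, 4.48 and 4.82 in MKO, against 4.89, 5.14 and 4.88 in WT, a difference of −0.20 (SE 0.17), and Psmb8 differed by −0.12 (SE 0.16). Of 9 proteasome-associated genes, 5 had a lower mean in MKO and 4 a higher one, with a median of −0.02. Akirin2, which carries proteasomes into the nucleus, read 7.24, 7.35 and 7.45 in MKO, against 7.22, 7.18 and 7.11 in WT, a difference of 0.18 (SE 0.11) with no overlap. Ublcp1, a phosphatase of the proteasome, differed by −0.31 (SE 0.18). Pomp, which helps the beta ring mature, differed by −0.20.

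Of 7 genes that regulate proteasome genes, 5 had a lower mean in MKO and 2 a higher one, with a median of −0.02. Nfe2l1 itself read 8.90, 8.89 and 8.99 in MKO, against 9.003, 8.82 and 9.02 in WT, a difference of −0.02 (SE 0.09). Nfe2l2, the related factor of the antioxidant response, differed by 0.19 (SE 0.10) and Ddi2, the protease that activates the Nfe2l1 product, by 0.17 (SE 0.12). The 1 measured gene of ubiquitin and its activating enzymes, Uba6, differed by −0.30 (SE 0.24), with MKO replicate 1 at 4.51 and the other MKO arrays at 5.28 and 5.66, against 5.27 to 5.70 in WT. Of 5 shuttle genes that bring substrates to the proteasome, 3 had a lower mean in MKO, with a median of −0.12. The 2 with the smallest p were Ddi1 (−0.35, SE 0.21) and Ubqln2 (0.16, SE 0.13).

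The ubiquitin ligases of muscle were even, with 5 of 10 lower and 5 higher and a median of 0.01. Trim63, a ligase of the sarcomere raised in atrophy, read 7.89, 8.16 and 8.21 in MKO, against 7.89, 8.15 and 8.03 in WT. Fbxo32, the other ligase raised in atrophy, read 9.64, 9.60 and 9.85 in MKO, against 9.84, 9.52 and 9.64 in WT. Both overlapped between groups, at differences of 0.06 and 0.03. Stub1 (−0.16, SE 0.12) and Fbxo21 (−0.10, SE 0.13) had the smallest p of this list.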

How the data were processed

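RNA of whole soleus from 3 MKO and 3 WT mice was hybridised to Affymetrix Mouse Gene 2.0 ST arrays, 1 per mouse. The authors deposited log2 values per exon-level probe set, made by RMA in Affymetrix Expression Console, per the submitters' processing notes (version not stated there). The table has 269751 rows, of which 233753 have 1 gene symbol, 5106 several and 30892 none; the last 2 kinds entered no gene value. Log2 values of the probe sets of a gene were averaged per array (median 8 per gene, and 2319 genes with 1). Groups were compared with limma 3.58.1 in R 4.3.3 (lmFit, eBayes with a variance trend), MKO minus WT, with Benjamini-Hochberg adjustment over all 23152 genes and, separately, over all rows; the steps were tested on simulated data. With 3 arrays a group, an exact permutation test could not go below a two-sided p of 0.1. Arrays give no read depth, and their number limits the precision. The deposited values carry no detection calls.

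Members given with every array by rule were the 10 with the smallest p, those with an outlying probe set and the catalytic and tissue-restricted genes, 19 in all. Psma4, Psmc5 and Psmd4 were added after their values were seen, and the other members are given by their differences. The members and all gene lists were chosen with earlier results of these data known. The 15 alternatives covered the moderation, array weights, scaling, the filter on dim genes or probe sets, the probe set summary, the replicate number as a block and each array left out. Of 42 genes on the pathway lists, 35 were found under 1 symbol. Sequences are from RefSeq (GRCm38.p6).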

Additional observations from a re-analysis of the deposited data

How the results depend on the processing

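No member passed an adjusted p under 0.05 under any of the 15 alternatives, and the smallest adjusted p of a member was 0.4927, with array weights. The members lower in MKO numbered 27 after quantile normalization, where their median difference was −0.0409, and 29 to 36 with 1 array left out, where it lay between −0.12 and −0.05. Of 45 members, 20 kept their sign under all 15 alternatives. Several of these could not turn a sign. The moderation, the replicate block and the filter on dim genes change the p and not the difference. The labels number the replicates and state no pairing of the mice. Deviations from the group means, for MKO and WT arrays of the same number, correlated at −0.088, 0.091 and −0.236. MKO replicate 1 correlated best with WT replicate 3 (0.296). Deviations from a mean of 3 arrays constrain one another, so these values cannot show whether the mice were paired. With the replicate block 0 members passed. In this balanced design the block cannot change a difference, so its 33 lower members were fixed in advance.

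With the median of the probe sets in place of the mean, the sign turned for 14 of 45 members: Psma1 (−0.33), Psma2 (0.165), Psma3 (−0.0347), Psma5 (0.0163), Psma7 (−0.0744), Psmc3 (0.0523), Psmd9 (−0.24), Psmb2 (0.38), Psmb4 (−0.12), Psmb6 (0.15), Psmd6 (0.0232), Psme3 (0.12), Psme4 (0.0295) and Psmg2 (0.16). It also turned for Psmb8 (0.26), Ubqln2 (−0.14), Stub1 (0.15) and Fbxo21 (0.0278). Group medians became −0.24 for the chaperones of the regulatory particle, 0.0009 for the activators, 0.16 for the immunoproteasome (1 gene lower) and −0.0829 for the regulators. This setting took the median of probe set levels on each array, and probe sets of a gene differ in level. The median of a member's probe set differences gave another picture. It kept the sign of the mean for Psma1, Psma2, Psma5, Psmc3, Psmb2, Psmb4, Psmb6, Psmd6, Psme3 and Psme4. It turned for Psma3, Psma7, Psmd9 and Psmg2, and also for Psmf1 (−0.11). With probe sets above the median row alone, Psmb2 was at 0.0465, Psmd9 at −0.0563, Psmg3 at 0.38, Psmb8 at 0.0435 and Stub1 at 0.13, the chaperones' median was −0.0563, the immunoproteasome median 0.0435 (1 lower) and 3 ligases were lower. Psmg2 was at 0.0499 with array weights, 0.0169 after quantile normalization and 0.0163 after median centring. The regulators' median was −0.0622 with array weights, and 3 of them were lower after median centring. Of the ligases, 2 were lower after quantile normalization and 3 after median centring.

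With 1 array left out, medians ran from −0.12 to 0.0389 for the alpha ring, from −0.13 to −0.0807 for the beta ring, from −0.0796 to −0.0151 for the ATPases, from −0.15 to −0.0768 for the non-ATPase subunits, from −0.0211 to 0.0706 for the chaperones of the regulatory particle, from −0.18 to −0.0599 for the activators, from −0.0327 to 0.13 for the chaperones of the core, from −0.26 to −0.0625 for the immunoproteasome, from −0.15 to −0.0221 for the shuttles and from −0.0402 to 0.015 for the regulators. Genes lower numbered 3 to 5 for the regulators, 3 to 8 for the ligases and 0 to 1 for Uba6. Differences ran from 0.12 to 0.52 for Psmg1, −0.13 to 0.33 for Psma8, −0.22 to 0.041 for Psme4, −0.11 to 0.13 for Psmg2, −0.19 to 0.0076 for Psmb11, −0.26 to 0.0338 for Psmb8 and −0.55 to 0.0213 for Uba6. The causes were not tested. For Psmb2 the mean difference without its 2 outlying probe sets was 0.00, and its 0.38 with the median of the probe sets was not traced. Where only dim probe sets read a gene, signal over background limits what can be seen.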

Other observations

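Outside the gene values, 8 probe sets pair a proteasome gene with another gene and cannot be assigned to either. The 4 shared by Psmd1 and Armc9 differed by −0.58, 0.61, 0.24 and 0.18 in MKO relative to WT. The 4 shared by Psma4 and AY074887 differed by 0.27, 0.03, −0.31 and −0.79. Probe set 17517458, shared by Psma4, was the brightest of the 8, at 8.27, 8.12 and 7.99 in MKO, against 7.9999, 8.14 and 8.14 in WT, with overlap.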
